A study of Notamacropus eugenii with 7 samples.

Results

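The miRNAs described here are 7 related small RNAs, miR-92, miR-25, miR-32, miR-19b, miR-19a, miR-18 and miR-93, which were taken by name from the 346 miRNAs of the tammar wallaby (Notamacropus eugenii) table, 102 of which were listed in at least 1 library. They come from the miR-17/miR-92 and miR-106b/miR-25 clusters and from the seed family of miR-25, miR-32 and miR-92. Small RNA was sequenced from the skim milk of lactating females on days 35 and 75 (phase 2A), 120 and 175 (phase 2B) and 250 (phase 3) of lactation, and from the blood serum of lactating females on days 120 and 175. No female received an experimental treatment. The milk of several females, let down with oxytocin, was pooled for each day before the RNA was isolated, so that a milk library is 1 pool, and each of the 7 libraries has 1 column of values. For serum the study's methods name fewer females per day than for milk, and do not say whether their serum was pooled. The values are percent of the annotated miRNA reads of a library. The days are those of the sample labels, and the study's text puts some of them a few days earlier.

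A miRNA cluster is a group of miRNAs cut from 1 long primary transcript. The miR-17/miR-92 transcript carries miR-17, miR-18a, miR-19a, miR-20a, a copy of miR-19b and a copy of miR-92a, is switched on by MYC and E2F factors, and is known for its part in cell proliferation, blood cell formation and lymphoma. The paralogous miR-106b/miR-25 transcript, with miR-106b, miR-93 and miR-25, lies in an intron of the replication gene MCM7, and miR-32 lies in an intron of TMEM245. The seed is the stretch of bases 2 to 8 of a miRNA, with which it pairs to its target mRNAs. MiR-25, miR-32 and miR-92 share one seed, miR-19a and miR-19b share another, miR-93 has that of miR-17, miR-20 and miR-106, and miR-18 has its own. MiR-92a is also known as an abundant miRNA of red blood cells and plasma.

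The primer that the study designed to amplify miR-92 is shown because it holds the seed letters that define the miR-25, miR-32 and miR-92 family. In DNA letters these are ATTGCAC, given in capitals, and they stand at bases 7 to 13 of the 21 bases of the forward primer, 5′ to 3′.
miR-92 forward PCR primer: gcgcttATTGCACttgtcccg
Searched on the printed strand only, they were in 1 of the 7 forward primers of the study. No primer is listed for the other members, and no PCR value was used here.

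MiR-92 was the most abundant of the 7 in every library. Its share of milk miRNA reads was 3.22% on day 35, 1.24% on day 75, 2.50% on day 120, 0.849% on day 175 and 0.984% on day 250. In serum it was 2.63% on day 120 and 4.49% on day 175. The milk of day 35 thus lay between the serum libraries and the other 4 milk libraries lay below both, that of day 120 by little. By rank among the miRNAs above 0, miR-92 stood between 7 and 16 in the milk libraries and at 5 and 4 in those of serum.

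MiR-25, the other abundant member of the same seed family, had 0.560% of milk reads on day 35, 0.1% on day 75, 0.225% on day 120, 0.319% on day 175 and 0.044% on day 250. Its serum share was 1.16% on day 120 and 0.528% on day 175. Day 35 milk lay between the serum values and the other 4 milk libraries lay below both. It ranked 10 in each serum library and between 14 and 34 in milk.

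MiR-19b was present in all 7 libraries at a lower level. Its milk shares were 0.081%, 0.077%, 0.013%, 0.161% and 0.021% in order of day, and its serum shares 0.098% and 0.024%. MiR-19a, which differs little from miR-19b and has the same seed, was absent on day 35 and then had 0.038%, 0.004%, 0.105% and 0.004% of milk reads on days 75, 120, 175 and 250. In serum it had 0.052% on day 120 and 0.008% on day 175. For both miRNAs the libraries with high shares were milk of days 75 and 175 and serum of day 120, joined by milk of day 35 for miR-19b alone. Milk and serum overlapped.

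The remaining 3 members had very low shares and were listed in 3 libraries or fewer. MiR-32 was listed in 3 libraries, with 0.003% in milk on day 175, 0.002% in milk on day 250 and 0.002% in serum on day 120. MiR-93 was listed in serum on day 120 alone, with 0.004%. MiR-18 had 0.001% in milk on day 75, was listed at 0 in milk on day 250, and was absent elsewhere. A listed 0 means a share under 0.0005%, as the values were rounded to 3 decimals, and shares of 0.001% to 0.004% are therefore known to 1 digit only. The percentages carry no read counts, and neither a counting interval nor an upper limit for an absent entry was computed from them.

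**Figure D1:**
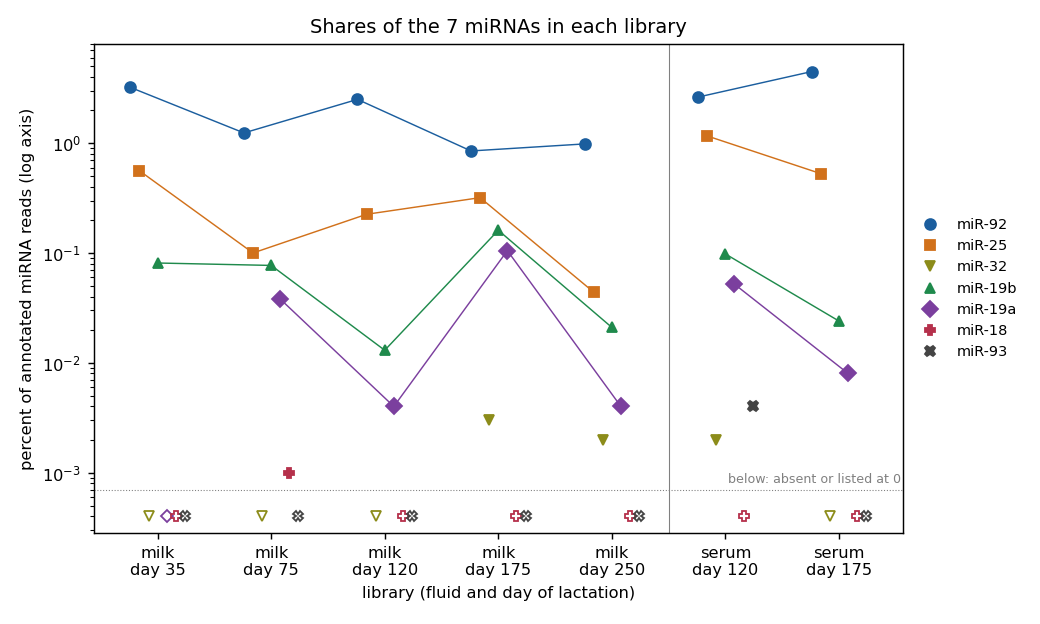
Percent of annotated miRNA reads of each of the 7 miRNAs (log axis) in the 5 milk and 2 serum libraries. Filled symbols are deposited values, open symbols under the dotted line are miRNAs that were absent or listed at 0, symbols are offset sideways for legibility, and lines join the days of a fluid for the 4 more abundant miRNAs; miR-92 is highest in each library and miR-19a and miR-19b are at their highest in milk of day 175.

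In all 7 libraries the order was miR-92, miR-25, miR-19b and miR-19a, with miR-19a absent on day 35. The 7 miRNAs together had 3.86% of the reads of day 35 milk, 1.46% on day 75, 2.75% on day 120, 1.44% on day 175 and 1.055% on day 250, and 3.95% and 5.05% in serum of days 120 and 175. MiR-92 alone made up from 59.1% of this sum, in milk of day 175, to 93.3%, in milk of day 250. These shares have a total that a few other miRNAs dominate. MiR-191 had between 9.66% and 43.8% of a milk library, and miR-10b had 69.2% and 55.4% of the serum libraries. Without these 2 in the denominator the members had from 1.27% (day 250) to 6.81% (day 35) of milk reads, and 15.7% and 16.8% of serum reads.

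The shares of members with copies in one cluster did not keep a fixed proportion. The entries used were not divided by genomic copy, so the proportion within 1 transcript was not measured. Ratios between members of the same library do not depend on the denominator, and were compared for this reason, as ratios of reads. MiR-92 and miR-19b, which have copies in the same primary transcript, stood at 39.7 to 1 in milk on day 35, 16.1 on day 75, 193 on day 120, 5.27 on day 175 and 46.9 on day 250. In serum the ratio was 26.8 on day 120 and 187 on day 175. Its highest value was 36.5 times its lowest, and rounding leaves the highest between 185 and 200.4 and the lowest between 5.25 and 5.29. MiR-92 to miR-25, members of one seed family from separate transcripts, ranged from 2.26 in serum of day 120 to 22.4 in milk of day 250, a 9.90-fold range. In each fluid this ratio and that of miR-92 to miR-19b were lowest in the same library, milk of day 175 and serum of day 120.

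Of the 4 ratios computed, that of miR-19b to miR-19a varied least, in the 6 libraries that held both. It was 2.03 in milk on day 75, 3.25 on day 120, 1.53 on day 175 and 5.25 on day 250, and in serum it was 1.88 on day 120 and 3 on day 175. It thus varied 3.42-fold over 6 libraries in which miR-19a itself varied 26.3-fold. It was lowest where both were abundant and highest where both were scarce, with rounding ranges of 2.78 to 3.86 on day 120 and 4.56 to 6.14 on day 250. Over these 6 libraries the log2 shares of miR-19a and miR-19b had a Pearson correlation of 0.99 and a Spearman correlation of 0.99, given as a description. With the milk of day 35, where miR-19a was absent and miR-19b had 0.081%, the Pearson correlation over 7 libraries was 0.54 (Spearman 0.63). Over the same 7 libraries it was 0.67 between miR-92 and miR-25 and -0.30 between miR-92 and miR-19b. The sources used here do not give how the counting divided reads between the similar miR-19a and miR-19b. Its part in their ratio, and in the absence of miR-19a on day 35, was not tested.

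**Figure D2:**
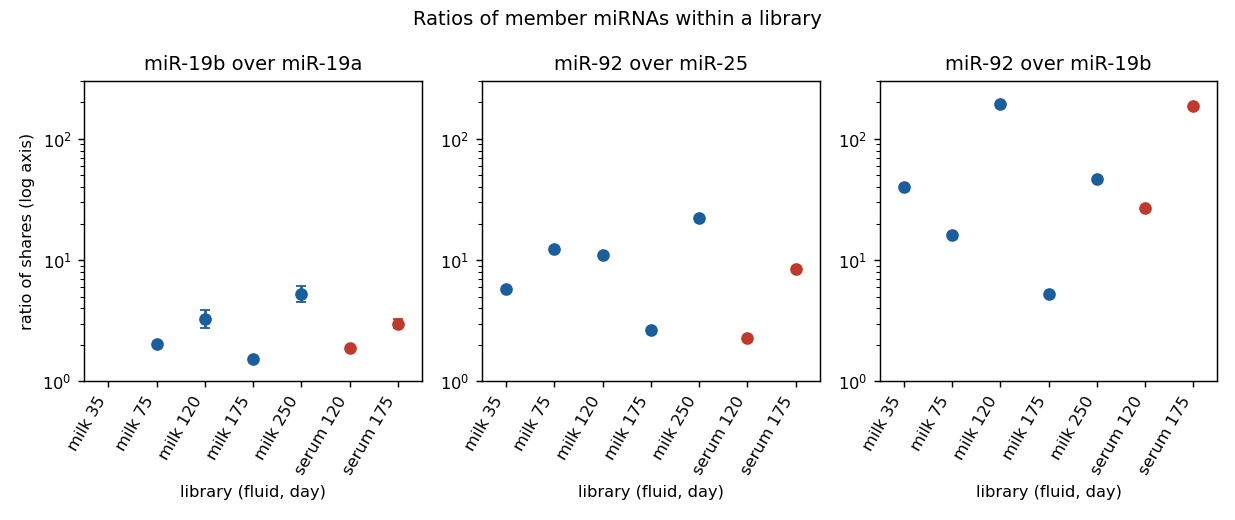
Ratio of the shares of 2 members within each library (log axis), for miR-19b over miR-19a, miR-92 over miR-25 and miR-92 over miR-19b. Blue points are milk and red points serum, by day, and bars are the range that rounding of the deposited values allows; there is no point for miR-19b over miR-19a in milk of day 35, where miR-19a was absent, and the ratio of miR-92 to miR-19b spans from 5.27 to 193.

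MiR-19a was missing from the earliest milk although it was present in each later one. Of 56 miRNAs listed in all 4 later milk libraries, 10 were absent on day 35. Among these 10, miR-19a had the highest later share, 0.105% on day 175, followed by the epithelial miR-200c with 0.046% and the red blood cell miR-451 with 0.045%. With entries listed at 0 counted too, 3 miRNAs without a share on day 35, miR-19a included, later reached at least 0.105%. MiR-19b had 0.081% in the same day 35 library. That library listed 48 miRNAs, against 58 to 86 in the other milk libraries, and the part of this in the absence of miR-19a was not tested.

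Along lactation miR-92 and miR-25 had their highest milk shares on day 35, whereas on day 75, also in phase 2A, both were below day 120. No test of a change with day was run over the 5 milk libraries, and the values are a description. From day 35 to day 250 the share of miR-92 was lower by a factor of 3.27, that of miR-25 by 12.7 and that of miR-19b by 3.86. Among 41 miRNAs above 0 on both days, whose median log2 change was -0.59, miR-25 had the third largest decrease, miR-19b was in place 12 and miR-92 in place 14. On a log2 scale, with 0.001 added to each percentage, the differences were -1.71 for miR-92, -3.64 for miR-25 and -1.90 for miR-19b, and all 3 were negative also when miR-191 was removed from the total and on the centred log ratio, which sets each miRNA against the mean log2 share of the miRNAs with at least 0.001% in every library compared. The decline was not steady. MiR-92 was 2.02-fold higher on day 120 than on day 75, and miR-25 was 2.25-fold higher.

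The highest milk share was on day 35 for miR-92 and miR-25 and on day 175 for miR-19a and miR-19b. Of the 64 miRNAs that reached 0.005% in some milk library, 12.5% were highest on day 35 and 40.6% on day 175, so a maximum on day 175 was common in these libraries. From day 120 to day 175 miR-19a was 26.3-fold higher, the largest increase among 56 miRNAs above 0 on both days, and miR-19b was 12.4-fold higher, in place 6. From day 175 to day 250 miR-19a was 26.3-fold lower, the second largest decrease among 67 miRNAs, and miR-19b was 7.67-fold lower. The gain on day 175 was present for both when miR-10b and miR-191 were removed from the total (log2 change of 3.83 for miR-19a and 2.87 for miR-19b) and on the centred log ratio (3.42 and 2.54). Over the same days the median log2 change of the 75 miRNAs that reached 0.001% in 2 or more of the 4 libraries of days 120 and 175, both fluids included, was 1.0 on the deposited scale, and 0.01 on the centred log ratio. From day 175 to day 250 the median log2 change of the 67 miRNAs was -0.64. Over that step miR-19b, at -2.88 with 0.001 added, was at -1.81 on the centred log ratio.

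MiR-92 was 2.95-fold lower in milk on day 175 than on day 120, with only 5 of the 56 miRNAs lower still. Its log2 change of -1.56 became -2.27 once miR-10b and miR-191 were removed from the total, and -2.55 on the centred log ratio. MiR-25 was 1.42-fold higher. This direction of miR-25 rests on the deposited scale, as its log2 change of 0.50 became -0.21 once miR-10b and miR-191 were removed from the total, and -0.49 on the centred log ratio.

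In serum the same days gave the opposite picture. MiR-92 was 1.71-fold higher on day 175 than on day 120, whereas miR-25 was 2.20-fold lower, miR-19b 4.08-fold lower and miR-19a 6.5-fold lower. MiR-32 and miR-93 were listed on day 120 and absent on day 175. MiR-32 likewise moved the other way in milk, where it was absent on day 120 and had 0.003% on day 175. Thus 5 of the 5 members with at least 0.001% in 2 of these 4 libraries differed between the days in opposite directions in milk and in serum, against 37 of all 75 such miRNAs, or 49.3%. With miR-10b and miR-191 removed from the total 4 of the 5 members did, against 39 of the 75 miRNAs, or 52%. On the centred log ratio 4 of the 5 did, against 42 of the 75, or 56%. MiR-25 was the exception on both scales. The count of members includes miR-32, whose steps lie between an absence and 0.003% in milk and 0.002% in serum. It also includes both miR-19a and miR-19b, whose shares went the same way in each fluid. Each change compares 1 library with 1 library.

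**Figure D3:**
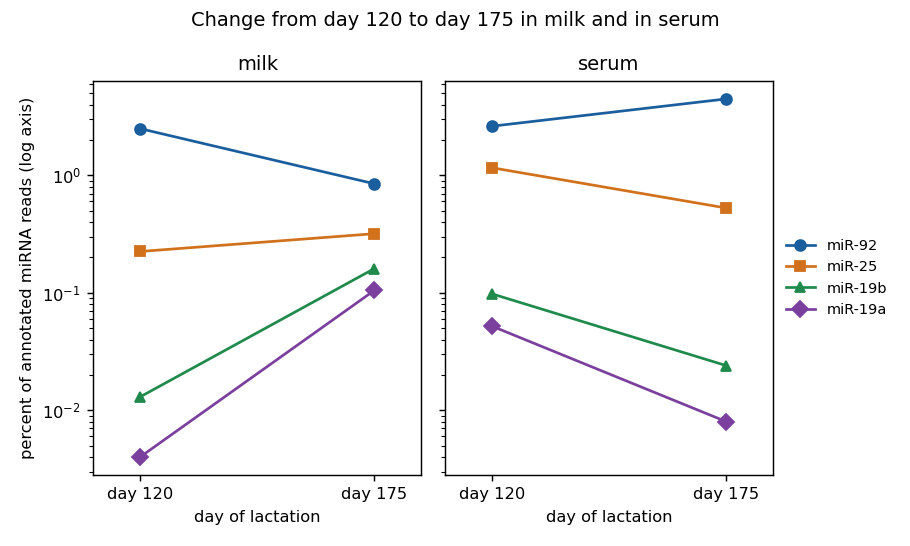
Percent of annotated miRNA reads (log axis) of the 4 more abundant miRNAs on days 120 and 175 of lactation, in milk on the left and in serum on the right, with 1 library per point. In milk miR-92 goes from 2.50% to 0.849% while miR-19a and miR-19b go up, and in serum miR-92 goes from 2.63% to 4.49% while the other 3 go down.

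Milk was compared with serum to see whether these miRNAs, several of them known from blood, were richer in one fluid. On day 120 milk and serum had almost the same share of miR-92 (1.05-fold higher in serum), and on day 175 serum had 5.28-fold more. MiR-25 was 5.17-fold higher in serum on day 120 and 1.66-fold higher on day 175. The miR-19 pair changed sides. On day 120 serum had 7.54-fold more miR-19b and 13.0-fold more miR-19a than milk, and on day 175 milk had 6.71-fold more miR-19b and 13.1-fold more miR-19a than serum. The sides were the same on the other 2 scales but the sizes were not. Once miR-10b and miR-191 were removed from the total, the log2 differences of milk minus serum (with 0.001 added) of these 4 miRNAs were lower on both days. On day 120 it went from -0.07 to -1.14 for miR-92, from -2.36 to -3.44 for miR-25, from -2.82 to -3.93 for miR-19b and from -3.41 to -4.60 for miR-19a. On day 175 it went from -2.40 to -3.93 for miR-92, from -0.73 to -2.25 for miR-25, from 2.70 to 1.21 for miR-19b and from 3.56 to 2.15 for miR-19a. The median of all 75 miRNAs went from -0.52 to -1.59 on day 120 and from 1.0 to -0.13 on day 175.

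A fit over all miRNAs (limma on log2 of percent plus 0.001) took the 2 days as a pair of libraries of each fluid. Of 75 miRNAs tested, 22 had an unadjusted p under 0.05, and of the 5 members tested 0 did. A Benjamini-Hochberg adjusted p under 0.05 was reached by 14 of the 75, or 18.7%, and by 0 of the 5 members. With any 1 of the 4 libraries left out, 0 miRNAs passed. The log2 difference of milk minus serum was -1.54 ± 0.82 for miR-25 (estimate ± standard error, limma adjusted p = 0.26). That of miR-92 was -1.23 ± 0.89 (limma adjusted p = 0.41). The differences of miR-19b (-0.06, standard error 1.39), miR-19a (0.08, standard error 1.66) and miR-32 (0.21, standard error 1.05) were small beside their errors. The 5 had a median difference of -0.06 with 3 below 0, against 0.08 with 34 below 0 for all 75. MiR-25 passed on the centred log ratio, with a difference of -2.49 and a limma adjusted p of 0.037, against 0.064 to 0.67 over the other alternatives. On that scale 27 of the 75 miRNAs, or 36%, passed, and 1 of the 5 members. With the day as a block 0 of the 75 miRNAs passed and 20 had an unadjusted p under 0.05.

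Both milk values were below both serum values for miR-92 and miR-25, 2 of the 5 members tested. This held for 19 of all 75 miRNAs, or 25.3%.

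**Figure D4:**
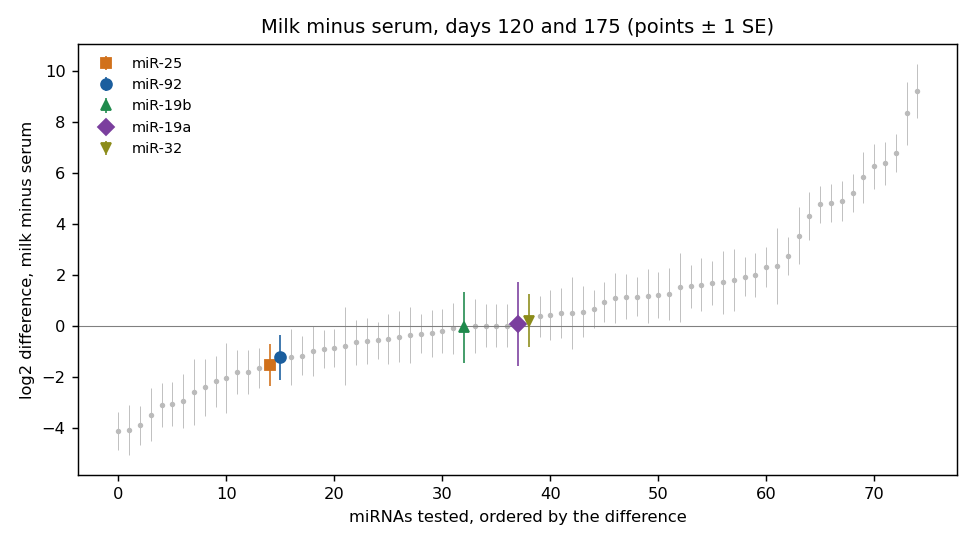
Log2 difference between milk and serum of days 120 and 175 for 75 miRNAs in order of size, positive where milk was higher. Points are estimates of the limma fit with bars of 1 standard error, grey for other miRNAs; miR-25 and miR-92 lie below 0 at -1.54 and -1.23, and miR-19b, miR-19a and miR-32 lie close to 0.

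With all 5 milk libraries set against the 2 serum libraries, the mean log2 difference was -2.13 for miR-25 (exact permutation test, two-sided p = 0.14, adjusted 0.30 over 69 miRNAs) and -1.17 for miR-92 (exact permutation test, two-sided p = 0.19, adjusted 0.36). It was -1.12 for miR-19a and 0.01 for miR-19b (exact permutation test, two-sided p = 0.67 and 1). The smallest p that the 21 splits allow is 0.048, which 21 of the 69 miRNAs or 30.4% reached, and 0 of the 4 members tested did. After adjustment 0 of the 69 were under 0.05. On the centred log ratio miR-25 and miR-92 had the smallest p, with differences of -3.36 and -2.40 (exact permutation test, two-sided p = 0.048 and adjusted p = 0.12 for both), as did miR-92 without miR-10b and miR-191 in the denominator. This p was reached by 27 of the 69 miRNAs, or 39.1%, on the centred log ratio, and by 25, or 36.2%, without miR-10b and miR-191. The study's methods name a different RNA kit for serum than for milk, so the fluid and the kit cannot be told apart.

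Few other names of these families had an entry in the table. Of 18 further names of the clusters and their seed families, 13 were in the table and 1 of these, miR-20, was listed in a library. MiR-20, which has the seed of miR-93, had 0.003%, 0.006%, 0.003% and 0.001% in milk on days 75, 120, 175 and 250, and 0.004% in serum on day 120. MiR-17, miR-18a, miR-20a, miR-92a, miR-92b, miR-106, miR-106b and miR-363 had no entry. How the counting divided reads among entries of the same miRNA under several names, such as miR-92, miR-92a and miR-92b, is not given in the sources used here.

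Red blood cell miRNAs were at low shares in both fluids. The list of miR-451, miR-451a, miR-144, miR-486 and miR-16 summed to between 0.087% and 0.147% in milk, and to 0.123% and 0.186% in serum, with 1 to 3 of the 5 listed and miR-451a and miR-486 without an entry in any library. Most of this was miR-16, which many tissues have. MiR-451, the defining one, was absent from milk on day 35, had 0.002% on days 75 and 120, 0.045% on day 175 and 0.009% on day 250, and had 0.041% and 0.054% in serum. The milk library with the most miR-451 was thus the one with the most miR-19a and miR-19b, and its part in their shares was not tested. The white blood cell list of miR-223, miR-142, miR-150 and miR-155 summed to at most 0.008% in milk and to 0.041% and 0.120% in serum. Epithelial miRNAs (miR-141, miR-200a, miR-200b, miR-200c, miR-429 and miR-205a) summed to between 0.742% and 6.501% in milk and to 0.009% and 0.027% in serum, and the highest of these sums was likewise that of milk of day 175.

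The miRNAs most like each member were sought among 65 others with at least 0.005% in a library, by Pearson correlation of log2 shares over the 7 libraries, as a description. For miR-19b they were let-7i (0.85), miR-101 (0.82) and miR-190b (0.66), and for miR-19a they were miR-27a (0.85), miR-190b (0.84) and miR-340 (0.75). For miR-25 they were miR-100 (0.85), miR-10b (0.80) and miR-203 (0.73). For miR-92 the highest values were lower, 0.66 for miR-10b, 0.66 for miR-187 and 0.65 for miR-122. MiR-187 was absent or listed at 0 in all 5 milk libraries, so its value rests on the 2 serum libraries. Over milk alone the values were 0.83 and 0.94 for let-7i and miR-101 with miR-19b, 0.88 for miR-27a with miR-19a, and 0.38 for miR-10b and 0.82 for miR-122 with miR-92. All these shares have the denominator of their library in common.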

How the data were processed

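The deposited table holds percent values, which the authors made by dividing the reads of each known miRNA by all annotated miRNA reads of the library, after trimming and counting with miRanalyzer against miRBase. They were rounded to 3 decimals, an empty entry standing for absence. All 7 columns were used. The series record mentions 8 profiles with duplicates of day 175. A second profile of that day was not analysed here.

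An absence was read as 0, and the log2 was taken after adding 0.001. Milk and serum of days 120 and 175 were compared with limma 3.58.1 in R 4.3.3, over miRNAs that reached 0.001% in 2 or more of these 4 libraries, p-values being adjusted by Benjamini-Hochberg. Since the days stand in for replicates, p-values measure the spread between these libraries, day included. A second fit had the day as block, because the study describes milk and serum of a day as taken from the same female. As milk was pooled over females, the overlap may be partial. The day 120 to 175 changes in milk and serum correlated at -0.12 over 75 miRNAs. The exact permutation test took miRNAs of at least 0.005% in a library. Limma was tested on simulated data of 75 miRNAs, 20 of them altered 16-fold, with a standard deviation of 0.7 and 50 runs. It recovered 99.7% of the altered ones, with 0.84 false calls per run. Differences as small as those of the members were not simulated, so no recovery rate was obtained for them. Python 3.11.15, numpy 2.4.6, pandas 2.3.3, scipy 1.17.1 and matplotlib 3.10.9 did the rest.

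The members, the related names and the marker lists were chosen with earlier results of these data known. Besides these, the text names, for each member of at least 0.005% in 3 or more libraries, the 3 other miRNAs most like it among those of at least 0.005% in 1 or more, miR-191 and miR-10b, and miR-200c and miR-451 beside the absence of miR-19a, picked once their values were known. The alternatives were a pseudocount of 0.01, no filter, other denominators, the centred log ratio, all 7 libraries, the block, and each library left out in turn. Mature miRNA sequences were not used here.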

Additional observations from a re-analysis of the deposited data

Results flagged for a closer look

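Between days 120 and 175 the 5 members tested in limma differed in opposite directions in milk and in serum. So did 37 of all 75 miRNAs tested, or 49.3%. The log2 change was -1.56 in milk and 0.77 in serum for miR-92, 0.50 and -1.14 for miR-25, 3.63 and -2.03 for miR-19b, and 4.71 and -2.70 for miR-19a. MiR-32 was higher by 0.003 percentage points in milk and had a difference of -0.002 in serum. With 1 library per fluid and day the difference between the fluids was not tested, and that of miR-25 depends on the scale, as its milk change turns negative on the other 2 scales.

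Within milk, the ratio of miR-92 to miR-19b at day 120 stood apart from the other 4 libraries, its gap of 0.778 of the whole range being above the limit of 0.71 for 5 samples on the linear scale. On the log2 scale the gap was 0.39 of the range, below that limit. MiR-18 gave a gap of 1, since it was above 0 in 1 milk library only, at 0.001%, the smallest step of the values. Chance gives about 1 such gap in 20 groups, 10 groups were looked at, and the milk libraries are of different days and no replicates of each other.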

How the results depend on the processing

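The 14 miRNAs that passed between milk and serum became 27 on the centred log ratio, 0 with the day as replicate block, and 0 with any of the 4 libraries left out, which leaves 1 library in a fluid, assumed to vary like the others. Scaling shifted the median log2 difference of all tested from 0.08 to -0.79 without miR-10b and miR-191 in the denominator, and to -0.87 on the centred log ratio. On the latter miR-25 passed at -2.49 in limma. In the comparison of 5 with 2 libraries it reached the smallest unadjusted p at -3.36 (exact permutation test), as did miR-92 at -2.40 there and at -2.49 without miR-10b and miR-191, with adjusted p of 0.12, 0.12 and 0.13. With a library left out, the smallest p of that permutation test is above 0.05. In limma miR-25 and miR-92 were lower in milk under every alternative run, but the size of the difference varied. With a library left out miR-25 ranged from -2.11 to -0.98 and miR-92 from -2.01 to -0.46. Without miR-10b and miR-191 in the denominator miR-25 was at -2.84 and miR-92 at -2.53. The miR-19 pair had no stable side. MiR-19b turned to 0.050 with a pseudocount of 0.01 and to 0.013 over all 7 libraries, and ranged from -1.83 to 1.70 with a library left out. From -0.06 in the main fit it went to -1.36 without miR-10b and miR-191, and to -1.01 on the centred log ratio. MiR-19a turned to -1.23 without miR-10b and miR-191, -0.87 on the centred log ratio and -1.12 over all 7 libraries, and ranged from -2.13 to 2.28. Both were above 0 without milk of day 120 or serum of day 120, and below 0 without milk of day 175 or serum of day 175. With 5 milk against 2 serum libraries miR-19b turned to -1.30 and -1.22 on these 2 scales and ranged from -0.98 to 1.01 with a library left out, and miR-19a ranged from -2.40 to 0.16. No alternative was run for the day 250 to day 35 difference of miR-19a, absent at day 35, or for the milk correlation of miR-187. The cause of these shifts was not tested. The percentages carry no read counts, and no counting error was computed for shares near 0.001%, where rounding leaves 1 digit.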
